A study of Mus musculus with 6 samples.

Results

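The Atf4 axis of the integrated stress response was examined as a set of 10 genes: Atf4, Atf5, Ddit3, Ppp1r15a, Trib3, Chac1, Asns, Sesn2, Eif2ak3 and Cebpb. They were chosen by gene symbol, with earlier results of these data known. Each of the 10 symbols matched exactly 1 of the 41921 rows of the deposited count table. All 10 passed the filter on low counts, which 13158 genes passed in total. The samples were 6 RNA sequencing libraries of RAW264.7, a mouse macrophage-like cell line with no genetic modification named (labelled WT), which the cytokine RANKL can drive towards osteoclasts, the cells that resorb bone. The labels assign 3 libraries to RANKL and 3 to albiflorin, a monoterpene glycoside of peony root, and the text on treatment gives RANKL at 50 ng/mL from 3 days after confluence for all 6. It does not say outright that the albiflorin cells also received RANKL, and no dose or timing is stated for albiflorin. No unstimulated library was analysed here, and nothing states that replicates were separate cultures, so the p-values below reflect the scatter of these 6 libraries alone and that scatter may be technical.

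In the integrated stress response, stress-sensing kinases phosphorylate the translation factor eIF2α, which lowers protein synthesis overall while favouring translation of a few mRNAs with upstream reading frames, ATF4 and ATF5 among them. ATF4 pairs with other bZIP proteins, such as the C/EBP factors, and switches on genes for amino acid supply, redox balance and, when stress lasts, cell death. In macrophages and osteoclast precursors ATF4 is also known to act downstream of M-CSF and RANKL signalling. Because ATF4 is controlled largely in translation, and the kinases by phosphorylation, mRNA counts do not measure the activity of the pathway.

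The libraries held 13673284 to 15489482 counts. The groups differed over many genes by small amounts, and 23.8% of the tested genes passed the test (12.4% higher and 11.4% lower with albiflorin; edgeR quasi-likelihood test, adjusted p under 0.05), so a call by itself is common. The difference followed mRNA length. Genes with an mRNA under 1000 nt had a median log2 fold change of 0.38, those of 1000 to 2000 nt 0.18, those of 2000 to 4000 nt 0.01 and those of 4000 to 8000 nt -0.14. Fold changes are therefore given a second time after each library's trend on mRNA length had been removed, which left 10.4% of genes called, 4.84% higher and 5.55% lower. Removal of the trend on the listed gene length left 15.1%, 7.18% higher and 7.96% lower. Of 8 macrophage markers 7 were matched, with a summed level of 3882 to 4180 CPM (counts scaled to a common library total) in the RANKL libraries and 4008 to 4183 CPM with albiflorin. Within them Itgam was at or below 0.0734 CPM in every library, and markers were called in both directions: Spi1 (log2 fold change 0.31, edgeR adjusted p = 0.00232) and Cd14 (0.26, 0.0119) were higher with albiflorin and Adgre1 (-0.30, 0.00933) was lower, while Csf1r was not called (-0.17, 0.066). With the mRNA-length trend removed Spi1 (0.21, edgeR adjusted p = 0.0168) and Adgre1 (-0.28, 0.0144) were still called and Cd14 was not (0.09, 0.306). The 9 osteoclast markers summed to 57.2 to 61.6 CPM with RANKL and 63.5 to 72.1 CPM with albiflorin. Of 6 tested, Acp5 was called higher (0.29, edgeR adjusted p = 0.0371) and 0 were lower (3 higher and 1 lower at an unadjusted p under 0.05). With the mRNA-length trend removed 0 were called (0.08, adjusted p = 0.632 for Acp5, and 1 higher at an unadjusted p under 0.05). Itgb3 had the lowest estimate (-0.75, adjusted p = 0.134). Ctsk (5 to 14 counts), Oscar (0 to 3) and Calcr (0 throughout) were not tested. Markers of T cells, B cells, fibroblasts and epithelia summed to at most 0.659 CPM per list. Changes in the make-up of the cultures and in RNA per cell cannot be told apart in bulk samples, and the part of the macrophage and osteoclast markers in the results below was not tested.

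Sequence around known binding motifs is shown first, as a description of the promoters. A link between the motifs and the calls below was not tested. The 250 bases upstream of each RefSeq transcription start (build GRCm38.p6, which is not the assembly of the count table) were searched on both strands for the C/EBP-ATF response element TGATGNAAN, the cyclic AMP response element TGACGTCA and the AP-1 element TGANTCA. All 10 genes had a promoter entry, Atf5 with 2. The first motif was found in Asns and Chac1, the second in Ppp1r15a, and the third in Ddit3 and Eif2ak3. None of these motifs was found in Atf4, Atf5, Trib3, Sesn2 or Cebpb, of which Atf4, Trib3 and Cebpb are called below. Across all 32851 mouse promoter entries of that length, 3.44% held the first, 1.55% the second and 6.75% the third. Capitals mark the motif in each stretch, written 5′ to 3′ on the strand of the gene and ending no later than the last base before the start.
Asns, chr6:7693210-7693262, reverse strand: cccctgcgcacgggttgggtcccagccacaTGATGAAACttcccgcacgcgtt
Chac1, chr2:119351018-119351086, forward strand: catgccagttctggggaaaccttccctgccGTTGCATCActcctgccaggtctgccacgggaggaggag
Ppp1r15a, chr7:45526269-45526310, reverse strand: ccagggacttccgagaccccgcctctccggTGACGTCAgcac
Ddit3, chr10:127290543-127290587, forward strand: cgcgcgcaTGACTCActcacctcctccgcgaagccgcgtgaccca
Eif2ak3, chr6:70844300-70844366, forward strand: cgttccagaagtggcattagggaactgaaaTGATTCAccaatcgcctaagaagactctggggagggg
The Chac1 match reads on the opposite strand. In Asns the element lies 23 to 15 bases before the start, and in Ppp1r15a 12 to 5 bases before it. These letters are descriptions of the window, not sites shown to be bound, and an element outside the window would not be seen.

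Of the 10 genes, 5 were higher with albiflorin and 0 lower by edgeR, DESeq2 and limma-voom alike (0 lower at an unadjusted p under 0.05 as well): Ppp1r15a, Atf4, Trib3, Cebpb and Asns. The background share called higher was 12.4%. The same 5 had every albiflorin library above every RANKL library, a pattern that 20.8% of all tested genes showed. The median log2 fold change of the 10 genes was 0.24, against 0.01 over all tested genes, and it was 0.13 against -0.02 with the mRNA-length trend removed. Because the 10 genes were chosen with earlier results of these data known, these comparisons do not test for an excess. With the mRNA-length trend removed, 3 of the 10 were called higher, Ppp1r15a, Atf4 and Asns, and 0 lower by edgeR (1 at an unadjusted p under 0.05, Ddit3). In that fit 4.84% of all tested genes were called higher and 5.55% lower. In CPM summed over the 10 genes, the RANKL libraries lay at 672 to 681 and the albiflorin libraries at 807 to 852. Atf4 and Asns make up most of that sum.

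**Figure D1:**
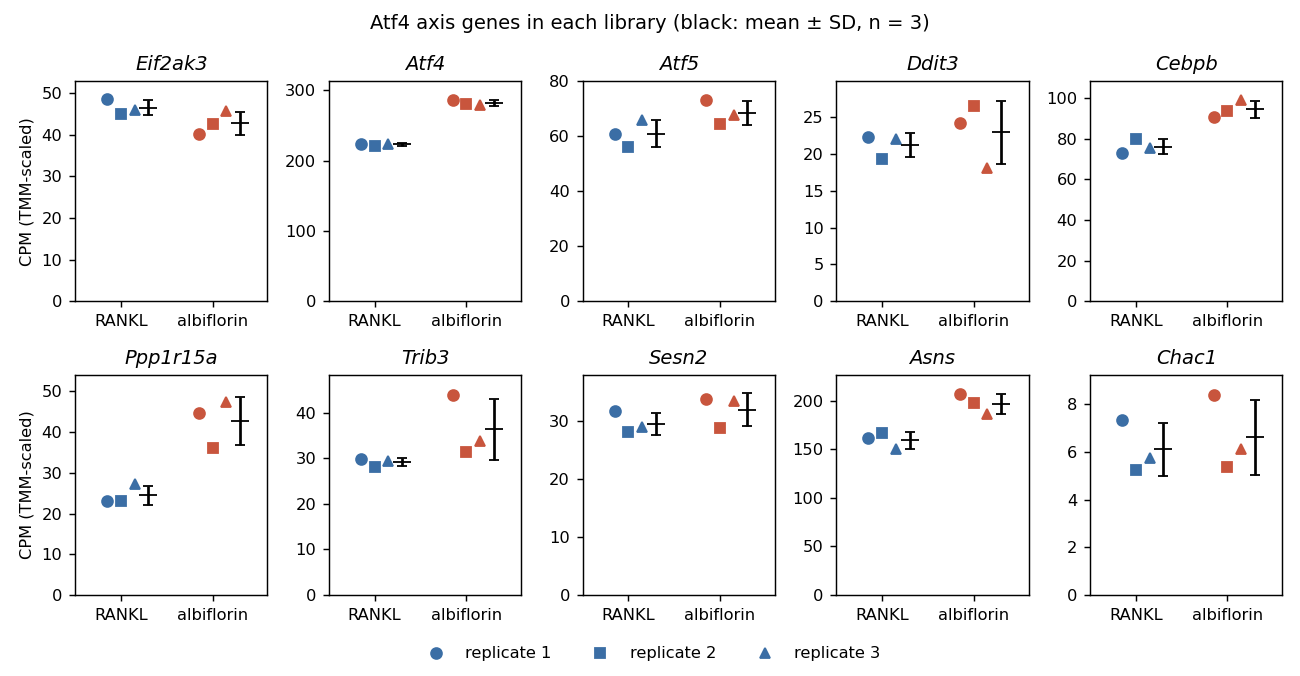
Scaled CPM (y axis, from 0) of each of the 10 genes in the 3 RANKL and 3 albiflorin libraries (x axis), with marker shape giving the replicate number and black bars the mean ± SD. The groups separate for Atf4, Cebpb, Ppp1r15a, Trib3 and Asns, and a single albiflorin library, replicate 1, stands well above the others for Trib3.

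At the top of the axis stands Eif2ak3, which encodes PERK, the eIF2α kinase of the endoplasmic reticulum (MGP_C57BL6NJ_G0031288, chromosome 6, 73159737 to 73226218 in the deposited table). Its level was 48.6, 45.0 and 46.1 CPM in RANKL replicates 1 to 3 and 40.1, 42.5 and 45.6 CPM in albiflorin replicates 1 to 3. Albiflorin replicate 3 fell between the RANKL libraries, so the groups overlapped. The log2 fold change was -0.12 ± 0.0763 (SE, n = 3 per group; edgeR quasi-likelihood test, adjusted p = 0.265), and -0.02 with the trend removed (at an adjusted p of 0.902). The 95% interval on the log2 scale ran from -0.28 to 0.04.

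The other eIF2α kinases fell in the same comparison. Eif2ak4 (GCN2, the sensor of uncharged tRNA) measured 77.5, 80.2 and 74.3 CPM with RANKL and 63.8, 61.8 and 68.4 CPM with albiflorin. Eif2ak2 (PKR, activated by double-stranded RNA) had a log2 fold change of -0.26 ± 0.073 (edgeR adjusted p = 0.0183) and Eif2ak1 (HRI, which senses haem and relays mitochondrial stress) of -0.18 ± 0.0638 (edgeR adjusted p = 0.049), beside -0.26 ± 0.0665 for Eif2ak4 (edgeR adjusted p = 0.0109). In each of these 3 genes all albiflorin libraries lay below all RANKL libraries, as they did for 19.3% of all tested genes. With the mRNA-length trend removed, 0 of the 4 kinase genes was called, 2 being lower at an unadjusted p under 0.05 (edgeR adjusted p = 0.359 for Eif2ak1, 0.1 for Eif2ak2 and 0.192 for Eif2ak4), although all 4 estimates stayed below 0. The Eif2ak2 call ended when RANKL replicate 2 (0.0729) or albiflorin replicate 1 (0.0838) or 2 (0.0647) was dropped, and the Eif2ak1 call ended in 15 of 17 alternatives, among them each of the 6 with a library left out (0.0766 to 0.151), DESeq2 (0.067) and limma-voom (0.0545).

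On the substrate side the calls were in the other direction. All 7 tested genes for eIF2 and its exchange factor eIF2B had a positive log2 fold change (median 0.18), and 3 were called higher and 0 lower. Eif2s2, the β subunit of eIF2, was at 39.5, 45.2 and 43.7 CPM with RANKL and 54.3, 64.8 and 49.4 CPM with albiflorin, without overlap (a log2 difference of 0.39 ± 0.0934, edgeR adjusted p = 0.00723). Eif2s1, which encodes eIF2α itself, rose by 0.18 ± 0.0575 (edgeR adjusted p = 0.033) and Eif2b1 by 0.32 ± 0.0875 (edgeR adjusted p = 0.016), while Eif2b2 stood at 0.14 (adjusted p = 0.178). With the trend removed Eif2s2 (0.34, adjusted p = 0.0217) and Eif2s1 (0.21, 0.014) were still called and Eif2b1 was not (0.105). The Eif2s1 call ended without any RANKL library or without albiflorin replicate 1 or 2 (adjusted p 0.0629 to 0.137), and that of Eif2b1 without RANKL replicate 2 (0.0797) or albiflorin replicate 1 (0.0874).

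Atf4, the central transcription factor, was the most abundant of the 10 genes (MGP_C57BL6NJ_G0022507, chromosome 15, 83765878 to 83768234). It was at 224, 221 and 224 CPM in the RANKL libraries and at 287, 281 and 279 CPM in the albiflorin libraries. All albiflorin libraries lay above all RANKL libraries. The coefficient of variation was 0.82% with RANKL and 1.46% with albiflorin, below the 1.75% and 1.58% that counting error alone gives at these counts, so the spread of these 3 libraries per group understates the error. This is a 1.27-fold higher level (log2 fold change 0.34 ± 0.0564, edgeR adjusted p = 0.000794), and the estimate stayed between 0.32 and 0.35 whichever library was left out. Among genes with an mRNA of 1000 to 2000 nt, the class of Atf4, the median log2 fold change was 0.18 and 682 of 2273 were called higher. The mRNA-length trend removed, Atf4 stood at 0.18 ± 0.0485 (adjusted p = 0.0251), and with the trend on the listed gene length removed in its place at 0.15 and no longer called (adjusted p = 0.0708).

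Atf5 encodes a related bZIP factor that is translated under eIF2α phosphorylation in the same manner and is linked to the mitochondrial stress response. Its 3 RANKL libraries measured 60.9, 56.1 and 65.8 CPM and its albiflorin libraries 73.3, 64.5 and 67.8 CPM. Albiflorin replicate 2 lay below RANKL replicate 3, so the groups overlapped. The log2 fold change of 0.17 ± 0.0753 did not pass (edgeR adjusted p = 0.115), and with the trend removed it was 0.03 (adjusted p = 0.84). The span of Atf5 overlaps 512 bases of the oppositely oriented Il4i1, which had 2705 to 3306 counts per library, and no source used here says whether reads were counted by strand.

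Cebpb encodes C/EBPβ, a dimer partner of ATF4 and a regulator of macrophage genes (chromosome 2, 178519948 to 178521451). Levels of 72.7, 79.8 and 75.4 CPM with RANKL compared with 90.6, 93.6 and 98.9 CPM with albiflorin. The groups did not overlap, and the log2 fold change was 0.31 ± 0.0648 (edgeR adjusted p = 0.00314). The call held with each library left out in turn (adjusted p 0.00661 to 0.0203). With the mRNA-length trend removed it was 0.11 and not called (adjusted p = 0.323), and likewise with the gene-length trend removed (0.09 at an adjusted p of 0.452). In values with the mRNA-length trend removed the groups overlapped, with albiflorin replicate 2 at 84.1 CPM and RANKL replicate 2 at 89.0 CPM. The Cebpb mRNA is 1504 nt long, in the same length class as Atf4.

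Ddit3 encodes CHOP, the bZIP factor induced late in the response that is associated with cell death (chromosome 10, 135316972 to 135322486). RANKL libraries were at 22.2, 19.3 and 21.99 CPM and albiflorin libraries at 24.2, 26.5 and 18.1 CPM. Albiflorin replicate 3 was the lowest of the 6 libraries and albiflorin replicate 2 the highest. The log2 fold change was 0.12 ± 0.123 (edgeR adjusted p = 0.54), with a 95% interval of -0.15 to 0.38. With the mRNA-length trend removed its sign turned, to -0.24 ± 0.0984 (adjusted p = 0.132), and the libraries then stood at 24.3, 23.3 and 24.5 CPM with RANKL and 21.5, 21.8 and 17.5 CPM with albiflorin. In those values all albiflorin libraries lay below all RANKL libraries, and the share of all tested genes that did so was not computed. The Ddit3 mRNA of 890 nt is the shortest of the 10, in the class where 59.9% of genes were called higher. Without albiflorin replicate 2 the estimate was -0.0011 and without albiflorin replicate 3 it was 0.26, neither called (adjusted p = 0.997 and 0.0937). The span of Ddit3 shares 68 bases with the oppositely oriented Mars, which had 2761 to 3406 counts per library beside 258 to 367 for Ddit3.

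Ppp1r15a encodes GADD34, the stress-inducible subunit that brings protein phosphatase 1 to eIF2α and so reverses the signal (MGP_C57BL6NJ_G0032711, chromosome 7, 48067838 to 48070962). It was at 23.1, 23.0 and 27.2 CPM with RANKL and at 44.7, 36.0 and 47.4 CPM with albiflorin. Every albiflorin library exceeded the highest RANKL library by a clear margin, with replicate 2 the lowest of the 3. The level was 1.75-fold higher (log2 fold change 0.81 ± 0.106, edgeR adjusted p = 0.000284), with a 95% interval of 0.58 to 1.03 that lay above those of Atf4 (0.22 to 0.46), Cebpb (0.17 to 0.45) and Asns (0.17 to 0.44). Of all tested genes 98.9% had a lower fold change. It was 0.79 ± 0.103 with the trend removed (at an adjusted p of 0.000552), and it was called in all 17 alternatives tried, with log2 fold changes of 0.72 to 0.91. The promoter stretch printed above holds the cyclic AMP response element of this gene. The 717 bases it shares with the oppositely oriented Tulp2 carry little, since Tulp2 had 16 to 34 counts per library.

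Of the 6 other tested genes listed with the eIF2α phosphatase, 0 passed with edgeR, DESeq2 or limma-voom, nor at an unadjusted p under 0.05. The 6 include Dnajc3, which encodes an inhibitor of eIF2α kinases, and the adaptor gene Nck1. Dnajc3 is counted again among the endoplasmic reticulum folding genes below. The constitutive partner gene Ppp1r15b, named after its value was seen, stood at 221, 226 and 227 CPM with RANKL and at 231, 225 and 228 CPM with albiflorin (0.02 ± 0.0565 as log2 fold change, edgeR adjusted p = 0.839). A higher call arose with the mRNA-length trend removed (0.18 at an adjusted p of 0.03) and none with the gene-length trend removed (0.27). The catalytic subunit genes Ppp1ca (0.08, adjusted p = 0.404) and Ppp1cc (0.03, adjusted p = 0.73) were not called, and Ppp1ca was called lower with the gene-length trend removed (-0.17 at an adjusted p of 0.0479). In FPKM, which divides by gene length, Ppp1r15b was at 40.0 with RANKL and 40.5 with albiflorin, above Ppp1r15a at 8.98 and 15.6.

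Trib3 encodes a pseudokinase that ATF4 and CHOP induce and that restrains both (chromosome 2, 161450457 to 161457704). It measured 29.8, 28.2 and 29.4 CPM with RANKL and 43.9, 31.3 and 33.8 CPM with albiflorin. The groups did not overlap, but albiflorin replicate 1 alone was far above the RANKL libraries and replicate 2 only just so. The log2 fold change was 0.32 ± 0.109 (edgeR adjusted p = 0.0412). Without albiflorin replicate 1 it dropped to 0.15 (adjusted p = 0.324), and the call also ended without RANKL replicate 1 (0.0736), replicate 2 (0.132) or replicate 3 (0.0793), and with the mRNA-length trend removed (0.21 at an adjusted p of 0.224). The coefficient of variation was 2.94% among the RANKL libraries and 18.4% among the albiflorin libraries. In values with the mRNA-length trend removed the groups overlapped, with albiflorin replicate 2 at 29.6 CPM and RANKL replicate 1 at 30.7 CPM.

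Sesn2 encodes sestrin 2, a leucine-binding stress protein that restrains the growth kinase complex mTORC1. It was at 31.7, 28.0 and 28.9 CPM with RANKL and at 33.8, 28.8 and 33.4 CPM with albiflorin. Albiflorin replicate 2 lay within the RANKL libraries, and the log2 fold change was 0.12 ± 0.0911 (edgeR adjusted p = 0.385; 0.15 with the trend removed, adjusted p = 0.277). The related Sesn1, with 38.4 to 39.9 FPKM as group means, was not called either (-0.05, adjusted p = 0.608).

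Asns encodes asparagine synthetase, a textbook target of ATF4 (MGP_C57BL6NJ_G0030881, chromosome 6, 4717874 to 4736025), and its promoter holds the C/EBP-ATF element printed above. Levels were 161, 167 and 149.9 CPM with RANKL and 206, 198 and 186 CPM with albiflorin. The groups did not overlap, with albiflorin replicate 3 the lowest of its group and still above RANKL replicate 2. The level was 1.23-fold higher (log2 fold change 0.30 ± 0.0641, edgeR adjusted p = 0.00341). All 17 alternatives called it (adjusted p 0.000299 to 0.0468), and its log2 fold change with the mRNA-length trend removed was 0.19 ± 0.0586.

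Chac1 encodes a glutathione-degrading enzyme that ATF4 and CHOP induce, and it also holds the C/EBP-ATF element. It was the lowest of the 10 genes, with 72 to 127 counts per library. Its CPM values were 7.34, 5.23 and 5.73 with RANKL and 8.37, 5.35 and 6.12 with albiflorin, and the groups overlapped, with albiflorin replicate 1 the highest library and the other 2 inside the RANKL range. The log2 fold change was 0.13 ± 0.195 (edgeR adjusted p = 0.687), with a 95% interval of -0.28 to 0.54. It was -0.04 with the trend removed and -0.09 without albiflorin replicate 1 (adjusted p = 0.927 and 0.812).

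**Figure D2:**
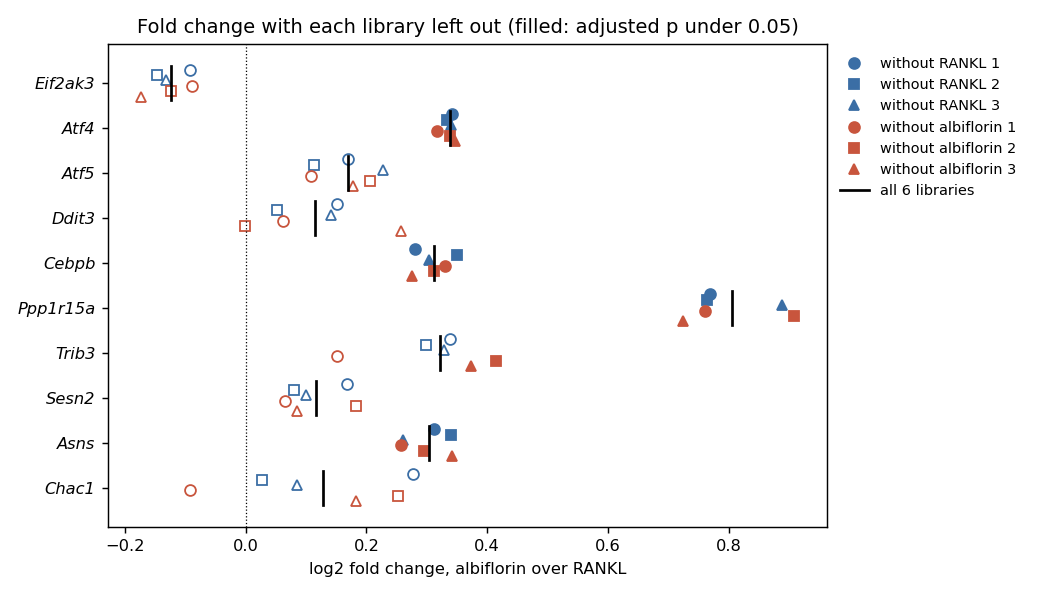
Log2 fold change, albiflorin over RANKL (x axis), of each of the 10 genes (y axis) with each of the 6 libraries left out in turn. Filled symbols passed the test (adjusted p under 0.05) and black bars give the estimate from all 6 libraries. Atf4 stays between 0.32 and 0.35, whereas Trib3 ranges from 0.15 to 0.41 and Chac1 from -0.09 to 0.28.

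**Figure D3:**
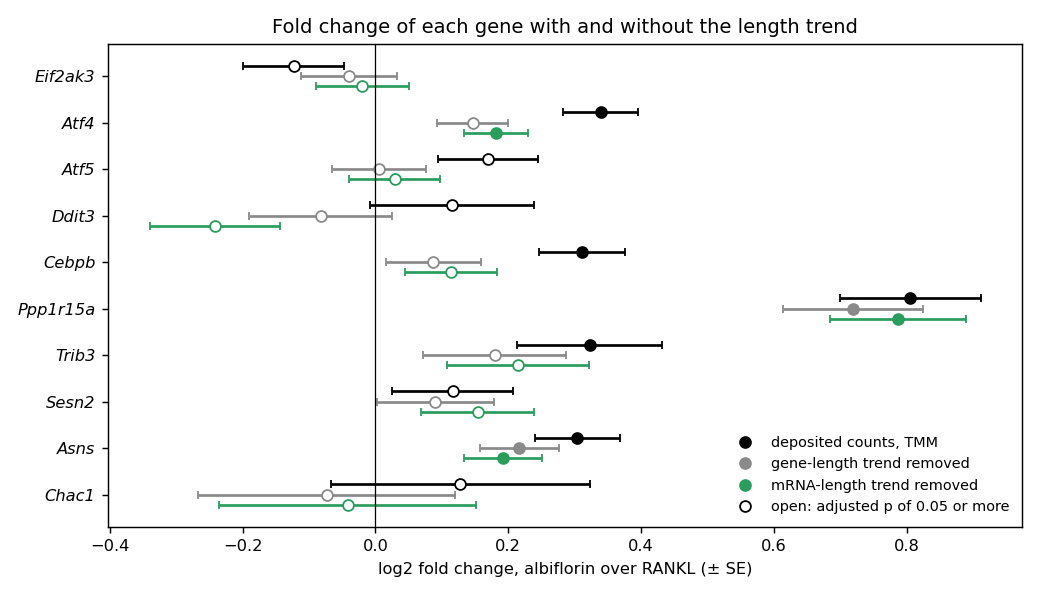
Log2 fold change ± SE, albiflorin over RANKL (x axis), of each gene (y axis) from the deposited counts and after removal of the trend with gene length or mRNA length. Ppp1r15a moves little (0.81, 0.72 and 0.79), Atf4 goes from 0.34 to 0.15 and 0.18, and Ddit3 from 0.12 to -0.08 and -0.24. Open symbols had an adjusted p of 0.05 or more.

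Levels between genes were compared in FPKM, the authors' values per kilobase of gene length. With RANKL the order was Atf4 (129 ± 0.955 FPKM, SD, n = 3), Asns (58.0 ± 3.18), Cebpb (50.3 ± 2.41), Atf5 (31.4 ± 2.47), Trib3 (13.6 ± 0.392), Ddit3 (12.3 ± 0.937), Ppp1r15a (8.98 ± 0.869), Sesn2 (8.47 ± 0.546), Eif2ak3 (7.69 ± 0.303) and Chac1 (3.71 ± 0.67). Only the neighbours Ppp1r15a and Sesn2 had overlapping library ranges in that order. With albiflorin Ppp1r15a (15.6 ± 2.22 FPKM) stood above Ddit3 (13.3 ± 2.47), and its library range overlapped those of both Trib3 (17.0 ± 3.12) and Ddit3. Ppp1r15a and Ddit3 exchanged ranks 6 and 7, and all other genes, Trib3 included, held the same ranks in both groups. Atf4 was above 97.3% of all tested genes in mean FPKM with RANKL and Chac1 above 30.4%. These orders rest on the listed gene length and may change with another length. For Ddit3 the listed length is 1713 bases beside an mRNA of 890 nt, and for Eif2ak3 6026 beside 4513. An order per mRNA length was not made.

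Across the 6 libraries, Atf4 in log2 CPM was most like Arpc5l (Pearson r = 0.999), Rtp4 (0.998), Trappc4 (0.998), Tmem14c (0.996) and Stard5 (0.995) among protein-coding genes outside the axis. In all, 251 of 10722 such genes reached an r over 0.95. Within the axis the r with Atf4 was 0.943 for Ppp1r15a, 0.93 for Asns, 0.919 for Cebpb, 0.758 for Trib3, 0.748 for Atf5, 0.55 for Sesn2, 0.317 for Ddit3, 0.278 for Chac1 and -0.73 for Eif2ak3. These values are descriptions over libraries that share a group difference.

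Genes around the axis were followed in 11 lists of symbols, which hold upstream kinases, eIF2 and phosphatase subunits, targets of ATF4 or CHOP, other unfolded protein response and mitochondrial stress genes, bZIP partners and relatives of the 10 genes. Outside the 10 genes, 120 of 127 listed genes were matched and 113 were tested, of which 20 were higher and 13 lower with albiflorin. That is 17.7% and 11.5%, beside 12.4% and 11.4% of all tested genes. With the mRNA-length trend removed 14 were higher and 2 lower, and in that fit 4.84% of all tested genes were higher and 5.55% lower. The median log2 fold change was 0.05 beside -0.02 over all tested genes. The same shares over all tested genes apply to the counts of each list, above and below. The lists were chosen with earlier results of these data known, so their counts do not test for an excess.

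Amino acid and one-carbon synthesis held 3 higher and 1 lower of 12 genes beside Asns (median log2 fold change 0.09). Psph, which completes serine synthesis, was at 24.1, 25.7 and 25.5 CPM with RANKL and 37.98, 40.6 and 34.7 CPM with albiflorin (0.59 ± 0.0869, edgeR adjusted p = 0.000434). The groups were well apart, and it was called in all 17 alternatives (0.43 at an adjusted p of 0.004 with the mRNA-length trend removed). Mthfd2, a mitochondrial folate enzyme, rose by 0.24 ± 0.0609 (edgeR adjusted p = 0.0095), a call that ended with the mRNA-length trend removed (0.106) and without albiflorin replicate 1 (0.082). Cth, which makes cysteine, was low at 0.975 and 1.55 FPKM and passed narrowly (0.67 ± 0.234, adjusted p = 0.0465), in 4 of 17 alternatives. It was not called without any 1 library other than albiflorin replicate 3 (adjusted p 0.0693 to 0.182). Aldh1l2, a mitochondrial folate dehydrogenase, fell by 0.47 on the log2 scale (SE 0.136, edgeR adjusted p = 0.019), and not with the mRNA-length trend removed (0.145) or without RANKL replicate 1 (0.104), RANKL replicate 2 (0.0619) or albiflorin replicate 2 (0.0714). The abundant Shmt2 (0.16, adjusted p = 0.106) and Psat1 (0.09, adjusted p = 0.321) were not called.

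Amino acid transporter genes had more lower than higher calls. Of 10 tested genes 1 was higher and 3 were lower (median log2 fold change -0.14), and with the mRNA-length trend removed 0 were called in either direction by edgeR (1 higher and 2 lower at an unadjusted p under 0.05). Slc38a1, a glutamine carrier, measured 302, 309 and 283 CPM with RANKL and 237, 234 and 260.1 CPM with albiflorin (-0.29 ± 0.0635, edgeR adjusted p = 0.00425). The cationic carrier Slc7a1 fell by 0.30 on the log2 scale (edgeR adjusted p = 0.00713) and the leucine exchanger Slc7a5 by 0.22 (adjusted p = 0.0433), whereas its heavy chain Slc3a2 rose by 0.21 (adjusted p = 0.0227). In the trend-removed fit these 4 had adjusted p values of 0.0879 to 0.416. The Slc3a2 call ended without RANKL replicate 2 (0.0984) or albiflorin replicate 1 (0.115), and that of Slc7a5 without any 1 library but albiflorin replicate 3 (0.0782 to 0.151). Slc38a2, the most abundant, stood at -0.03 (adjusted p = 0.754).

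The list of aminoacyl-tRNA synthetase genes, which ATF4 also serves, gained calls when the length trend was removed. From the deposited counts 2 of 13 were higher and 0 lower (median 0.10), and with the mRNA-length trend removed 5 were higher and 1 lower (median 0.15). The 13 include Xpot, which encodes a tRNA exporter and not a synthetase. It was 1 of those 5 (0.15, edgeR adjusted p = 0.0447). Cars was at 112, 109 and 111 CPM with RANKL and 138, 149 and 129.7 CPM with albiflorin, without overlap (0.32 ± 0.0637, edgeR adjusted p = 0.00221), and it was called in all 17 alternatives. Sars rose by 0.22 ± 0.0736 (edgeR adjusted p = 0.0375; 0.27 and 0.0168 with the trend removed), and not without RANKL replicate 2 (0.161), RANKL replicate 3 (0.0798) or albiflorin replicate 1 (0.162). Nars, the most abundant, stood at 0.15 (adjusted p = 0.0917).

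Among other targets of ATF4 or CHOP, 3 of 16 were higher and 1 lower (median 0.16). The lower gene was Atf6, which is also counted among the unfolded protein response genes below, where its values are given. Nupr1, a small stress-induced chromatin protein, went from 31.2, 31.5 and 31.5 CPM with RANKL to 48.4, 48.8 and 41.9 CPM with albiflorin (0.56 ± 0.0818, edgeR adjusted p = 0.000388). Removing the gene-length trend left it called (adjusted p = 0.00121), and removing the mRNA-length trend did not (0.19, 0.116). Herpud1, an endoplasmic reticulum degradation factor, rose by 0.28 ± 0.0646 (edgeR adjusted p = 0.00617; 0.0831 with the mRNA-length trend removed). The translation repressor gene Eif4ebp1 rose by 0.41 ± 0.118 (edgeR adjusted p = 0.0192), but not with DESeq2 (0.134), with the mRNA-length trend removed (0.087), without RANKL replicate 2 (0.0788) or without albiflorin replicate 1 (0.113). The autophagy receptor gene Sqstm1 stood at 0.17 (adjusted p = 0.0767).

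The other branches of the unfolded protein response were split. Of 22 tested genes for endoplasmic reticulum folding and the IRE1 and ATF6 arms, 4 were higher and 6 lower (median 0.09), and 3 and 1 with the mRNA-length trend removed. The sensor gene Ern1, which encodes IRE1α, was at 86.0, 84.7 and 76.9 CPM with RANKL and 61.1, 55.4 and 59.4 CPM with albiflorin (-0.49 ± 0.0693, edgeR adjusted p = 0.000377). Manf, a secreted chaperone target, went from 150.2, 139 and 155 CPM to 200.1, 212 and 174 CPM (0.40 ± 0.0735, edgeR adjusted p = 0.00155). Both were called in all 17 alternatives, at -0.28 and 0.32 with the mRNA-length trend removed. Atf6 (-0.28, adjusted p = 0.00854) and Sel1l (-0.25, adjusted p = 0.0135) fell, and not with that trend removed (0.504 and 0.487). Sel1l was not called without RANKL replicate 1 (0.0589) or RANKL replicate 2 (0.0613) either. The chaperone gene Hspa5 (BiP) rose by 0.18 (edgeR adjusted p = 0.0451; 0.23 and 0.0109 with the trend removed), a call that ended without any 1 library other than albiflorin replicate 3 (0.09 to 0.168). Calr was not called (0.08, adjusted p = 0.449).

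**Figure D4:**
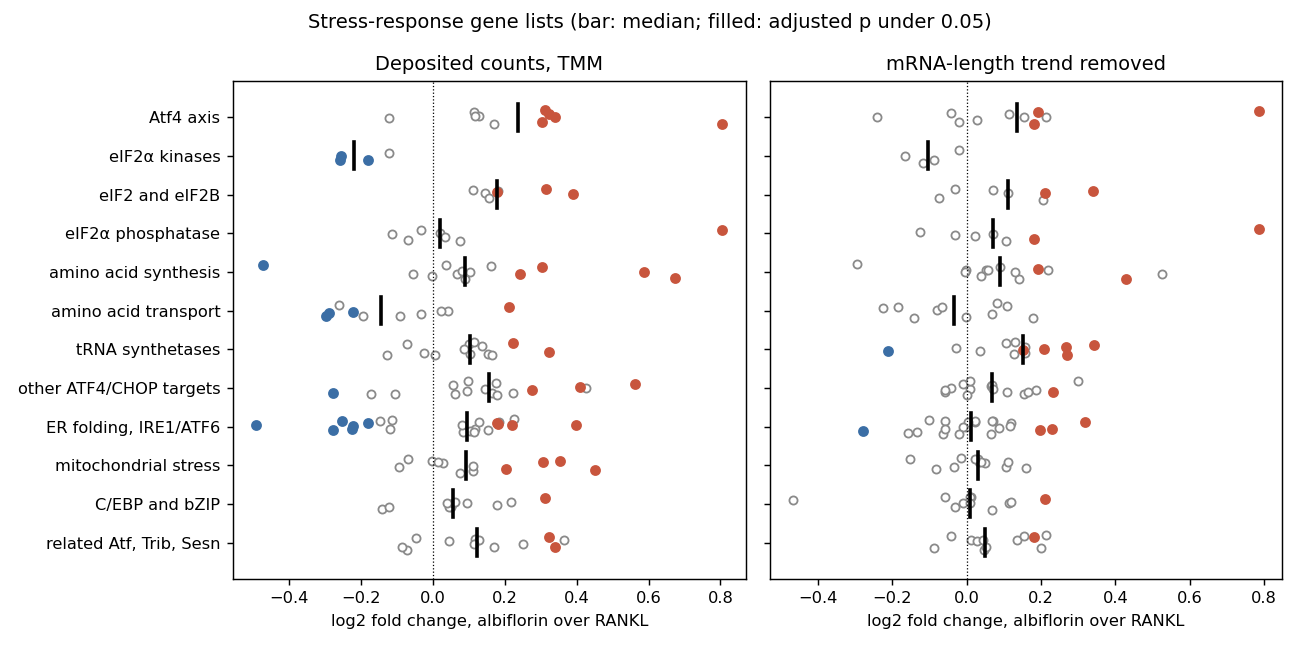
Log2 fold change, albiflorin over RANKL (x axis), of each tested gene in the 10-gene axis and 11 related lists (y axis), from the deposited counts (left) and with the mRNA-length trend removed (right). Red symbols were called higher, blue lower and open ones neither, and bars mark the list medians. The 3 called eIF2α kinases lie on the negative side at left and are open at right, while Ppp1r15a is at the far right of both panels.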

How the data were processed

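RNA was sequenced from 6 RAW264.7 libraries, and the deposited tables hold whole-number read counts per gene and FPKM values that the authors made. DESeq2 1.42.0, featureCounts 2.0.6-p3, HISAT2 2.2.1, fastp and CASAVA 1.8 are listed, per the submitters' processing notes, without saying what each did. No source used here names the assembly. Gene identifiers carry the prefix of the C57BL/6NJ assembly, and RAW264.7 comes from BALB/c, so reads over strain variants may be counted less well. The deposited FPKM equalled count over gene length and 1 total per library that lay -0.95% to 1.65% away from the sum of its column.

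Columns were matched to samples by treatment letter and replicate number. Counts were tested with edgeR 4.0.16 (R 4.3.3; filterByExpr, TMM scaling, quasi-likelihood F-test on group, Benjamini-Hochberg adjustment over all 13158 tested genes, threshold 0.05). SE is the log2 fold change over the square root of F. The trends were lowess curves (span 0.3, genes with mean log2 CPM over 3) of each library's deviation on log2 length, entered as offsets; mRNA lengths of principal transcripts came from GENCODE M21 by symbol (81.1% of tested genes and all 10 of the axis; the others took the listed gene length). Log2 CPM used a prior count of 2. Alternatives were RLE scaling, DESeq2 1.42.0, limma-voom (limma 3.58.1), no filter or at least 1 CPM in all 6 libraries, the replicate number as a block, each library left out, limma on log2(FPKM + 1) and log2(FPKM + 0.1), and the gene-length trend; the mRNA-length trend, alone and with the block, was added after the files had been seen. The scripts were tested on simulated data. Replicates of a group differed by more than sampling noise in every pair.

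The 10 genes and all lists were chosen with earlier results of these data known. Beyond the 10, the text names up to 4 called genes of each list by p and its 2 most abundant genes in FPKM, and the 5 genes most like Atf4. Xpot, Dnajc3, Nck1, Oma1 and Cebpz are named besides to describe their lists, and Ppp1r15b and Cebpg after their values were seen. Promoters are RefSeq entries on GRCm38.p6. The spread of replicates was below the counting error of a mean library in 3 of 20 pairs of gene and group (Atf4 in both groups and Trib3 with RANKL), and 3 counts equal 0.191 to 0.223 CPM. Both cover counting error only.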

Additional observations from a re-analysis of the deposited data

How the results depend on the processing

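Of 170 alternative values for the 10 genes, 149 kept their direction and side of the threshold, 13 lost the call and 8 changed sign. The count of the 10 genes called higher was 5, falling to 3 under the mRNA-length trend (3 also when blocked) and to 2 under the gene-length trend; the cause was not tested; with single libraries left out it was 4 to 5. By edgeR 0 was called lower, as in each of the 17 alternatives. Over all tested genes, 1631 were higher and 1496 lower. Leaving out 1 library gave 984 to 1753 higher and 914 to 1644 lower, with RANKL replicate 2 (1010 and 914), albiflorin replicate 1 (984 and 977) and albiflorin replicate 2 (1025 higher) the furthest below. The gene-length trend removed gave 945 higher and 1048 lower, the mRNA-length trend removed 637 and 730, and 589 and 637 with the block as well. Lower calls numbered 901 on log2(FPKM + 1) and 909 on log2(FPKM + 0.1). The 2 FPKM scales also ended the Trib3 call (adjusted p = 0.12 and 0.115).

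Signs turned in genes not called from the deposited counts, apart from Phb2 and Trappc4. With single libraries left out, Ddit3 ranged from -0.001122 to 0.257721, Chac1 from -0.0921663 to 0.277569 and Slc38a2 from -0.0699425 to 0.000775. With the gene-length trend removed, the mRNA-length trend removed, and the latter with the block, in that order, Ddit3 was at -0.082, -0.24 and -0.25, Chac1 at -0.073, -0.042 and -0.059, Eif2b2 at -0.027, -0.032 and -0.031, Ppp1ca at -0.17, -0.13 and -0.13, Creb1 at 0.13, 0.044 and 0.045, and Trappc4 at -0.11, -0.083 and -0.083. With the mRNA-length trend removed, without and with the block, Ppp1cc was at -0.031 and -0.029, Slc38a2 at 0.081 and 0.082, and Phb2 at -0.033 and -0.033. Calr was at -0.0026 without the block.

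Deviations of same-numbered libraries from their group means correlated at 0.0219, -0.0433 and -0.0664 over 13158 genes. Pairs with unlike numbers lay at -0.0241 to 0.0723. Nothing states whether same-numbered libraries shared a culture or day, and correlations this small cannot decide it. With the replicate number as a block, 1358 genes were higher and 1214 lower, and 5 of the 10 genes were higher. Depth limits Chac1 most, at 72 to 127 counts per library.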

Other observations

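Mitochondrial chaperone, protease and prohibitin genes, listed with the stress relay gene Oma1, held 4 higher and 0 lower of 12 tested (median log2 fold change 0.09). With the mRNA-length trend removed 0 were called by edgeR in either direction (2 higher and 1 lower at an unadjusted p under 0.05, median 0.03). Oma1, the protease gene of the relay to eIF2α, was not called from the deposited counts (0.11, edgeR adjusted p = 0.408). The co-chaperonin gene Hspe1 was at 142, 137 and 139.7 CPM with RANKL and 188, 222 and 164 CPM with albiflorin (0.45 ± 0.0852, edgeR adjusted p = 0.00178; 0.05 and 0.626 with the trend removed). Phb (0.30, adjusted p = 0.00629), the protease gene Clpp (0.35, adjusted p = 0.018) and Phb2 (0.20, adjusted p = 0.0229) rose from the deposited counts. Clpp was not called without RANKL replicate 2 (0.0935) or albiflorin replicate 1 (0.104). Phb2 lost its call when RANKL replicate 2 (0.0771) or 3 (0.0693) or albiflorin replicate 1 (0.0894) or 2 (0.0775) was dropped, and with the replicate block (0.0534). Hspa9, the most abundant, stood at 0.03 (adjusted p = 0.796).

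Of 11 tested genes listed as C/EBP and other bZIP genes, Cebpb was the 1 called from the deposited counts. The 11 include Cebpz, which is not a bZIP gene despite its symbol (0.04, edgeR adjusted p = 0.664). With the mRNA-length trend removed the 1 called was Cebpg, another C/EBP gene (0.21, edgeR adjusted p = 0.0301, against 0.09 and 0.307 from the deposited counts; named after its value was seen), and Cebpb was not (0.323). Nfe2l1 (-0.12, adjusted p = 0.236) and Nfe2l2 (0.06, adjusted p = 0.512) were not. Among relatives of the axis genes outside the 10, 0 of 7 tested were called by edgeR, DESeq2 or limma-voom from the deposited counts (1 higher at an unadjusted p under 0.05), Creb1 (-0.09, adjusted p = 0.334) included.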
